A study of Mus musculus with 20 samples.

Results

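The Hox genes encode homeodomain transcription factors and lie in 4 clusters, A to D, in mammals. Within a cluster the genes are numbered by paralog group, from paralog 1 at one end to paralog 13 at the other. In the embryo, low-numbered genes are active from the hindbrain and neck backward and high-numbered genes only in the lower trunk and tail, and many cells of the trunk, nerves and connective tissue keep part of this code into adult life. Members were every row of the count table whose symbol is Hox, a cluster letter from a to d, and a number. This gave 39 of 24062 genes, with 11 in the HoxA cluster (mouse chromosome 6, 52155590 to 52260880, minus strand), 10 in HoxB (chromosome 11, 96194316 to 96368256), 9 in HoxC (chromosome 15, 102921103 to 103036852) and 9 in HoxD (chromosome 2, 74668310 to 74765142). Coordinates are those of mm10 in GENCODE vM21.

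RNA sequencing was done on 20 tumor libraries of C57BL/6J mice that received no drug. The 12 neurofibroma libraries came from Nf1fl/fl; DhhCre mice, in which Cre driven by the Dhh promoter removes Nf1, the gene for the RAS inhibitor neurofibromin, from Schwann lineage cells. The 4 paraspinal tumor libraries (subgroup 1 and subgroup 2, 2 libraries each) and the 4 libraries of GEM-PNST, a malignant nerve sheath tumor of this mouse model, came from Ink4a/Arf+/-; Nf1fl/fl; DhhCre mice, which also carry 1 lost copy of the Ink4a/Arf tumor suppressor locus. The Cre and the floxed Nf1 alleles are thus common to all groups. The labels give no age and no site along the body axis. They do not say that the libraries came from separate mice. The sample codes of subgroup 1 library 1 and GEM-PNST library 2 differ only in their last letter and in case, those of GEM-PNST libraries 1 and 4 only in their first digit, those of the subgroup 2 libraries in 1 letter, and those of neurofibromas 8 and 9 share a number, so some libraries may share a source. What the p-values measure is spread among these libraries, which may be technical. The subgroups, which the labels call sub-clusters, may themselves rest on the expression data. Sequencing runs followed the groups: neurofibromas 1 to 6 made up the first run, neurofibromas 7 to 12 the second, and the 8 libraries of the other stages the third. Against neurofibromas, stage, genotype and run therefore cannot be told apart.

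The libraries held 9900759 to 24314222 counts. Cell type markers set the frame for what follows. The summed level of 10 Schwann lineage markers was 1831 to 5118 CPM (counts scaled to a common, TMM-adjusted library total) in neurofibromas and 5011 to 9555 in paraspinal tumors, but 3.61, 3.83, 1012 and 26.9 in GEM-PNST libraries 1 to 4. The summed level of 10 sensory neuron markers was 15.5 in neurofibroma 4 and up to 7243 in neurofibroma 11, 3243 to 4689 in paraspinal tumors and 45.5 to 478.9 in GEM-PNST. In GEM-PNST single genes made up much of that sum: Avil gave 474.7 of 478.9 CPM in library 1, above its highest neurofibroma value of 342.0, and Tubb3 gave 143.7 of 149.3 in library 3. GEM-PNST library 3 held 39680 CPM of 10 salivary gland markers against at most 82.3 in any other library. In bulk tissue, fewer cells of a type and less RNA per cell cannot be told apart.

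All 4 clusters were transcribed in these tumors. Of the 39 genes, 26 passed the filter on low counts. The 13 that did not were Hoxa10, Hoxa11, Hoxa13, Hoxb1, Hoxb13, Hoxc10, Hoxc11, Hoxc12, Hoxc13, Hoxd10, Hoxd11, Hoxd12 and Hoxd13. Hoxa13, Hoxc11, Hoxc12 and Hoxd12 had 0 counts in all 20 libraries, which allows a level of up to 0.112 to 0.302 CPM per library (3 counts, counting error only). Hoxb1 had 7 counts in 3 libraries, Hoxd13 had 2 and Hoxb13 had 3.

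**Figure D1:**
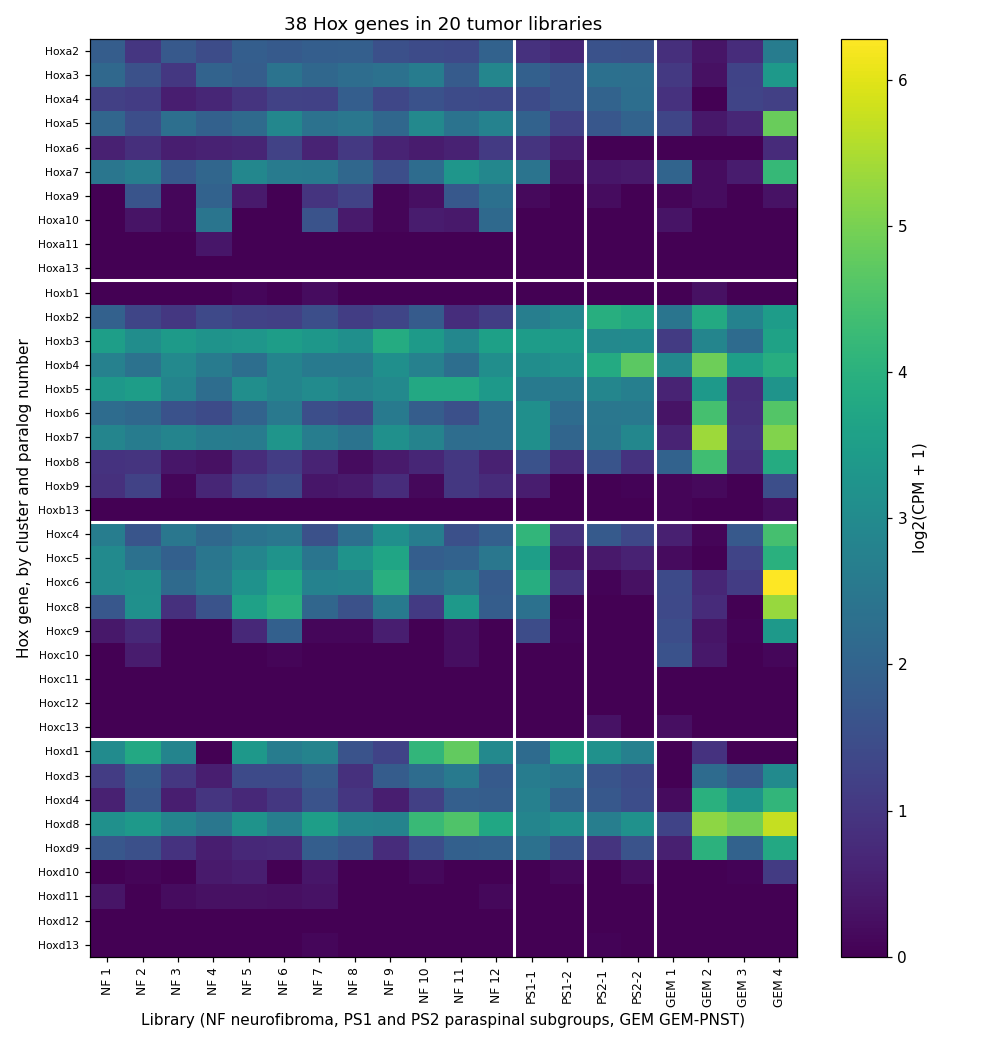
Level of 38 of the 39 Hox genes (rows, by cluster and paralog number) in each of the 20 libraries (columns), as log2(CPM + 1) on the color scale. White lines part the clusters and groups. Hoxc5 to Hoxc9 are dark in both subgroup 2 libraries, in subgroup 1 library 2 and in GEM-PNST library 2 (there at most 0.712 CPM). GEM-PNST library 4 has the brightest HoxC cell (Hoxc6, 76.6 CPM).

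Per kilobase of exon, which lets genes be compared with each other, the highest neurofibroma means were Hoxd1 at 4.44 ± 3.92 CPM per kb (SD, n = 12) and Hoxb7 at 4.37 ± 1.16, followed in their own clusters by Hoxc6 at 4.27 ± 2.29 and Hoxa5 at 2.26 ± 0.804. Hoxd1, Hoxb7 and Hoxc6 did not differ beyond their spread. In paraspinal tumors the leading members were Hoxb2 at 6.01 ± 2.76 (n = 4) and Hoxb4 at 5.26 ± 3.20, with Hoxd1, Hoxc6 and Hoxa4 leading the other clusters at 3.83 ± 1.76, 2.40 ± 4.33 and 1.67 ± 0.582. Subgroup 1 alone was led by Hoxc6 at 4.71 ± 5.91 (n = 2), ahead of Hoxb7 at 4.17 ± 2.50. The lead of Hoxc6 rested on subgroup 1 library 1, at 14.1 CPM, against 0.843 in subgroup 1 library 2. Subgroup 2 alone was led by Hoxb2 at 8.37 ± 0.633. In GEM-PNST Hoxb7 led at 14.4 ± 16.2 (n = 4), with Hoxc6 at 12.7 ± 23.9 and Hoxd8 at 10.8 ± 7.69. The SDs of Hoxb7 and Hoxc6 were larger than their means. Hoxa5 led HoxA in GEM-PNST.

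The summed Hox level per kb was narrow in neurofibromas, with a lowest value of 31.5, a median of 48.5 and a highest of 62.0. Paraspinal tumors lay in the same range, at 61.8 and 34.6 in subgroup 1 and 41.8 and 46.8 in subgroup 2. GEM-PNST libraries 1 to 4 lay at 17.8, 104.2, 31.5 and 213.8, so 1 was below and 2 were above every neurofibroma. These sums, like the shares that follow, are descriptions without a test.

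By cluster, HoxB gave the largest share in the neurofibroma group, 35.9% ± 5.47 (SD, n = 12), with HoxC at 22.7% ± 8.90, HoxA at 20.7% ± 5.52 and HoxD at 20.7% ± 10.1. In the paraspinal libraries HoxB gave 36.5% and 49.1% in subgroup 1 and 62.1% and 65.0% in subgroup 2. HoxC, a cluster whose paralogs 6 and higher mark the trunk below the neck in the embryo, gave 35.3% in subgroup 1 library 1 but 2.85% in subgroup 1 library 2 and 2.85% and 1.99% in subgroup 2. The low HoxC share was therefore shared by 3 of the 4 paraspinal libraries and did not follow the subgroup labels.

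Each GEM-PNST library had its own makeup. Library 1 drew 30.1% from HoxA and 4.39% from HoxD. Library 2 drew 71.8% from HoxB and 26.6% from HoxD, and only 0.533% from HoxA and 1.03% from HoxC. Library 3 drew 51.3% from HoxD, the highest HoxD share of the 20 libraries, and library 4 drew 40.3% from HoxC, the highest HoxC share.

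**Figure D2:**
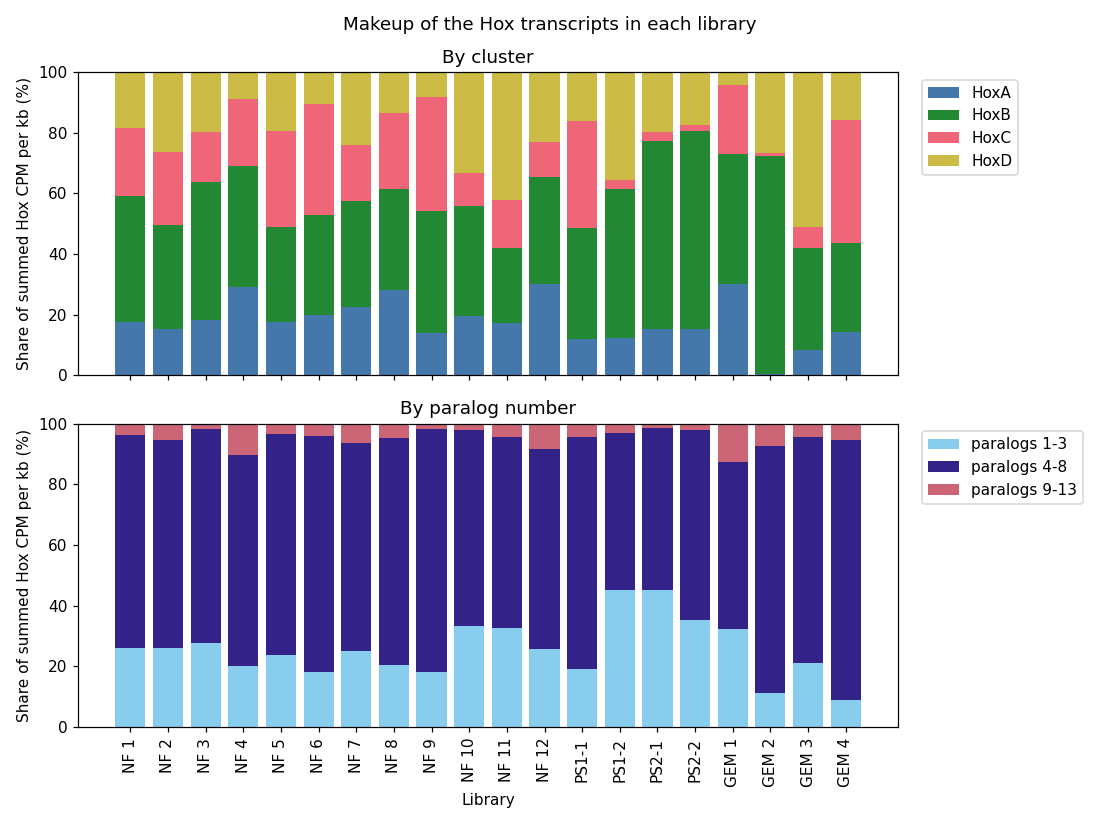
Share of the summed Hox CPM per kb (y axis, %) in each library (x axis), by cluster in the upper panel and by paralog number in the lower panel. HoxC fills 1.99% to 2.85% of 3 paraspinal bars and 35.3% of the other; paralogs 4 to 8 are the largest class in every library.

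By paralog number, groups 4 to 8 gave 51.7% to 85.7% of the summed level in each of the 20 libraries. Groups 1 to 3 gave 24.8% ± 4.97 in neurofibroma, 36.2% ± 12.3 in paraspinal tumors and 18.3% ± 10.6 in GEM-PNST, and groups 9 to 13 gave 4.70% ± 2.64, 2.82% ± 1.34 and 7.47% ± 3.71. At a level of 1 CPM or more, the HoxA cluster reached a paralog of group 9 or higher in 6 of 12 neurofibromas, in none of 4 paraspinal tumors and in none of 4 GEM-PNST, while HoxD reached one in 7, 3 and 3 libraries. HoxC reached one in neurofibroma 6, in subgroup 1 library 1 and in GEM-PNST libraries 1 and 4.

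The first comparison asked how paraspinal tumors differed from neurofibromas. Hoxb2, Hoxb4, Hoxd4, Hoxb8, Hoxa4 and Hoxb6 were higher in paraspinal tumors and Hoxa9, Hoxb9, Hoxa7 and Hoxa5 were lower, at an adjusted p under 0.05 in edgeR's quasi-likelihood test with Benjamini-Hochberg adjustment over 16589 genes. The 6 higher members were 23.1% of the 26 tested, against 30.7% of all genes tested, and the 4 lower were 15.4% against 28.9%, so neither count stood above the background. HoxB gave 4 of the 6 higher calls (Hoxb2, Hoxb4, Hoxb6, Hoxb8), HoxA gave 3 of the 4 lower calls, and none of the 5 HoxC genes tested passed.

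Hoxb2, which in the embryo acts in the hindbrain and is among the most anterior Hox genes, had the largest rise. Its level in neurofibromas was 0.772 CPM at the lowest, 1.43 at the median and 2.84 at the highest, against 5.48 and 6.39 in subgroup 1 and 14.3 and 12.9 in subgroup 2. All 4 paraspinal libraries lay above all 12 neurofibromas, which held in that direction for 1 of the 26 members and 18.6% of all genes tested; no member lay wholly below, as 17.8% of all genes did. The log2 fold change was 2.64 ± 0.29 (SE, edgeR adjusted p = 7.89e-07).

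Hoxb4, a central paralog also known for its part in blood stem cell growth, was at 3.83, 5.46 and 7.75 CPM in neurofibromas (lowest, median, highest), at 7.47 and 7.99 in subgroup 1 and at 13.4 and 25.1 in subgroup 2. Both subgroup 2 libraries and subgroup 1 library 2 lay above the neurofibroma range, and subgroup 1 library 1 lay within it. The log2 fold change was 1.28 ± 0.27 (edgeR adjusted p = 5.22e-04) and 0.48 with subgroup 1 alone, where it no longer passed. Hoxb2 and Hoxb4 kept their call without any 1 paraspinal library.

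The other higher members overlapped the neurofibroma range. Hoxd4 was at 5.68 and 3.02 CPM in subgroup 1 and at 2.33 and 1.79 in subgroup 2, against 0.431, 1.00 and 2.74 in neurofibromas (log2 fold change 1.28 ± 0.47, edgeR adjusted p = 0.0259). Hoxb8 differed by 1.18 ± 0.44 (0.0298), Hoxa4 by 0.94 ± 0.35 (0.0287) and Hoxb6 by 0.83 ± 0.31 (0.0306), in the same test. Without subgroup 1 library 1 the calls of Hoxd4, Hoxb8 and Hoxb6 were lost, as was that of Hoxb8 without subgroup 2 library 1, and without either subgroup 2 library that of Hoxa4 was lost.

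The lower members were posterior or central HoxA genes and Hoxb9. Hoxa7, a trunk gene, was at 1.85, 4.77 and 8.92 CPM in neurofibromas (lowest, median, highest), at 4.31 in subgroup 1 library 1 and at 0.222, 0.292 and 0.336 in the other 3 paraspinal libraries. Those 3 lay below all neurofibromas and subgroup 1 library 1 lay within them (log2 fold change -1.85 ± 0.68, edgeR adjusted p = 0.0263). Hoxa9 had a log2 fold change of -4.02 ± 1.47 (0.0255), Hoxb9 of -2.63 ± 0.92 (0.0206) and Hoxa5 of -0.83 ± 0.33 (0.0372) in that test. The 4 paraspinal libraries together held 6 counts of Hoxa9 and 11 of Hoxb9, so the size of these 2 changes rests on few counts. Neurofibromas overlapped them, at 0 to 4.02 CPM for Hoxa9 and 0.0744 to 1.57 for Hoxb9. Without subgroup 1 library 1 there were 3 higher and 9 lower members, and without subgroup 1 library 2 there were 6 higher and none lower. Without subgroup 2 library 1 or 2 there were 4 and 5 higher and 2 and 1 lower. Over these 4 settings 4562 to 5074 of all 16589 genes were higher and 4215 to 4798 lower. The lower calls thus turned on single libraries.

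HoxC in the paraspinal tumors split by library. Hoxc6 was at 14.1 CPM in subgroup 1 library 1 and at 0.843, 0.0486 and 0.224 in subgroup 1 library 2 and subgroup 2 libraries 1 and 2, against 2.52 to 14.6 in neurofibromas. Hoxc8 was at 4.07 CPM in subgroup 1 library 1 and had 0 counts in the other 3, where all 12 neurofibromas held 0.818 to 14.6. Hoxc5 followed the same split, with 10.5 against 0.310 to 0.523, and so did Hoxc4 less steeply, with 16.5 against 0.843 to 2.43. The fibroblast markers, which also belong to cells that use Hox genes, summed to 7316 CPM in subgroup 1 library 1, 4164 in subgroup 1 library 2 and 11560 and 8855 in subgroup 2, and the muscle markers to 1426, 12.8, 483.6 and 8.41. Their part in the split was not tested.

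Against the first neurofibroma run alone 5 members were higher and 1 lower, and against the second run alone 3 were higher and 3 lower. Of all genes, 4967 were higher and 4494 lower against the first run, and 4498 and 4289 against the second. The second run did not differ from the first in any member (0 of 26 in edgeR at an adjusted p under 0.05, 3 at an unadjusted p under 0.05, and 0 in limma-voom). Of all 16589 genes edgeR called 0 here as well, and 13.3% were at an unadjusted p under 0.05, so this 0 is not particular to the Hox genes. With the RLE scaling in place of TMM, 4 members were higher and 5 lower in paraspinal tumors, where 4692 of all genes were higher and 5150 lower.

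**Figure D3:**
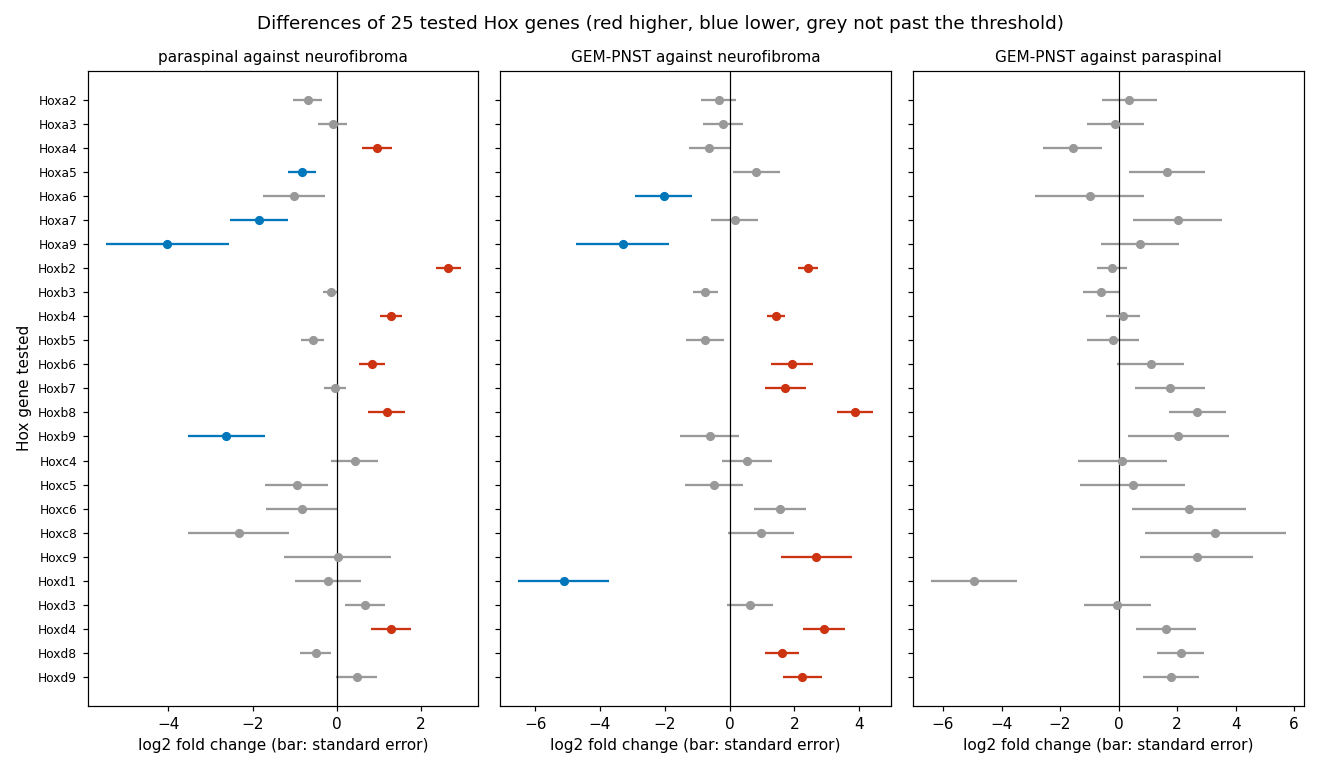
Log2 fold change of 25 of the 26 tested Hox genes (y axis) in 3 comparisons (panels, x axis), with its standard error as a bar. Red points were higher and blue points lower at an adjusted p under 0.05, and grey points did not pass; Hoxb2 is red at 2.64 and 2.42 in the first 2 panels, and no point passes in the third.

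GEM-PNST were then compared with neurofibromas. Hoxb8, Hoxd4, Hoxc9, Hoxb2, Hoxd9, Hoxb6, Hoxb7, Hoxd8 and Hoxb4 were higher and Hoxd1, Hoxa9 and Hoxa6 lower. The 9 higher members were 34.6% of the 26, against 35.4% of all genes tested, and the 3 lower were 11.5% against 37.9%. HoxB gave 5 of the higher calls, HoxD 3, HoxC 1 and HoxA none. This comparison and the one before share their 12 neurofibromas.

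Hoxb8, a trunk gene also active in myeloid progenitors, was at 0.151, 0.570 and 1.16 CPM in neurofibromas (lowest, median, highest) and at 2.94, 19.4, 0.790 and 13.5 in GEM-PNST libraries 1 to 4. Library 3 lay within the neurofibroma range and the other 3 above it. The log2 fold change was 3.87 ± 0.56 (SE, edgeR adjusted p = 1.12e-05). Macrophage markers, of the myeloid lineage, (4 in the table) summed to 29.9 to 466.9 CPM in neurofibromas and to 1275, 732.6, 1697 and 2442 in GEM-PNST libraries 1 to 4; their part in the Hoxb8 difference was not tested.

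Of the HoxD genes, Hoxd4 was at 0.134, 14.8, 8.29 and 16.5 CPM in the 4 GEM-PNST libraries in order, and at 0.431 to 2.74 in neurofibromas. Hoxd8 was at 1.41, 36.2, 29.6 and 51.9, against 4.64 to 22.5. For both genes library 1 lay below every neurofibroma and libraries 2 to 4 above every one. The log2 fold changes were 2.91 ± 0.64 (edgeR adjusted p = 6.70e-04) for Hoxd4, 1.61 ± 0.53 (0.0113) for Hoxd8 and 2.25 ± 0.60 (0.00287) for Hoxd9, which stood at 0.468, 15.3, 2.91 and 12.8 CPM against 0.442 to 2.92. Hoxd3 and Hoxd4 share exon bases in the annotation, and a counted antisense gene, Hoxd3os1, overlaps Hoxd3, Hoxd4 and Hoxd8. Without a stated strand setting some of their reads could belong to a neighbor. Antisense genes are annotated over 14 of the 39 members. Among them are Hoxb3os over Hoxb2, Hoxb5os over Hoxb6, and Hoxaas3 over Hoxa4, Hoxa5, Hoxa6 and Hoxa7. These were not counted under those names, and the same limit holds for the members they overlap.

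Hoxb2 was at 4.41, 13.03, 5.87 and 10.2 CPM in GEM-PNST libraries 1 to 4. Again all of these lay above all neurofibromas, which held in that direction for 1 of the 26 members and 21.2% of all genes tested, while no member lay wholly below, as 25.2% of all genes did (log2 fold change 2.42 ± 0.31, edgeR adjusted p = 2.93e-06). Hoxb4 was at 6.69, 28.6, 10.6 and 14.1 CPM (1.43 ± 0.28, adjusted p = 2.62e-04), with library 1 within the neurofibroma range. Hoxb6 (1.93 ± 0.66, 0.0146) and Hoxb7 (1.72 ± 0.64, 0.0228) split by library: Hoxb7 was at 40.0 and 33.0 CPM in libraries 2 and 4 and at 0.535 and 0.938 in libraries 1 and 3, against 3.77 to 8.73 in neurofibromas.

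Promoter windows from RefSeq (GRCm38.p6, 250 bases before the start site, plus strand) are shown for 3 members that were higher in GEM-PNST. They are Hoxb8 at chr11:96281655-96281904, Hoxd4 at chr2:74721728-74721977 and Hoxd8 at chr2:74704365-74704614. Capitals mark 4 motifs searched on both strands: the CCAAT box, the TATA box (letters TATAAA), the E-box with letters CACGTG, and the PBX-HOX motif with letters TGATNNAT, where PBX proteins are partners of HOX proteins on DNA.
Hoxb8: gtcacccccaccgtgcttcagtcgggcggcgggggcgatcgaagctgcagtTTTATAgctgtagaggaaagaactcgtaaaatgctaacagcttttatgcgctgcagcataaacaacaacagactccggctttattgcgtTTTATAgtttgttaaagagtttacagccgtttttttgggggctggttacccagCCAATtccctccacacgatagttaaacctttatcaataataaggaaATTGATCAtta
Hoxd4: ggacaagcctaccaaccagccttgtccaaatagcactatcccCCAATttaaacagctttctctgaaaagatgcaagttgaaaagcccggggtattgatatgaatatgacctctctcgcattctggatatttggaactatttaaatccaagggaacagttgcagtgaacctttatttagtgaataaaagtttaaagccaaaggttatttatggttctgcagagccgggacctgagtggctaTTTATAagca
Hoxd8: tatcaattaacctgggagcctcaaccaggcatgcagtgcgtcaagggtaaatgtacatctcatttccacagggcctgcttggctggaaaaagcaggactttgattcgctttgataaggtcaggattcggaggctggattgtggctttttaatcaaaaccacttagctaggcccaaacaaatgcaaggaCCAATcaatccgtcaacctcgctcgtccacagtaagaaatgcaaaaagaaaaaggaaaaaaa
CCAAT was in all 3 windows, in 14 of the 24 Hox windows, and in 33.9% of 32851 promoter windows of the same length. TATAAA was in those of Hoxb8 and Hoxd4, against 4 of the 24 Hox windows and 12.4% of all, and TGATNNAT was in that of Hoxb8, against 4 of 24 and 7.68%. A match is a description of letters and not a site of binding; RefSeq windows were found for 22 of the 39 members.

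Hoxc9, a posterior paralog, was at 1.81, 0.274, 0.0493 and 9.44 CPM in GEM-PNST, and at 0 to 2.80 in neurofibromas with a median of 0.124 (log2 fold change 2.67 ± 1.10, edgeR adjusted p = 0.0377). The other HoxC genes did not pass. Library 4 held by far the most HoxC message, with Hoxc4 at 20.6, Hoxc5 at 14.8, Hoxc6 at 76.6 and Hoxc8 at 38.4 CPM, whereas Hoxc6 was at 0.602 to 1.67 in libraries 1 to 3, below all neurofibromas. Library 1 was the one library above 1 CPM for Hoxc10, at 2.01; it was singled out after its values were seen, and it shares exon bases with Hoxc5 in the annotation.

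The lower HoxA members were at low levels throughout. Hoxa9 was at most 0.240 CPM in GEM-PNST against up to 4.02 in neurofibromas (log2 fold change -3.30 ± 1.43, edgeR adjusted p = 0.0462), and Hoxa6 had counts in GEM-PNST library 4 only, at 0.720 CPM, against 0.398 to 1.36 (-2.04 ± 0.89, 0.0474). In library 4 Hoxa5 and Hoxa7 stood at 27.7 and 17.4 CPM, above all neurofibromas. In libraries 2 and 3 both genes lay below all neurofibromas, with Hoxa5 at 0.328 and 0.592 CPM and Hoxa7 at 0.164 and 0.395. In library 1 Hoxa5, at 1.47 CPM, lay below all neurofibromas too, while Hoxa7, at 3.08, lay within their range.

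Without GEM-PNST library 4, 5 members were higher and 12 lower, where 5769 of all 16589 genes were higher and 6074 lower. The balance of directions among the members thus rested on that library. The lower count was 1 without GEM-PNST library 1, 2 or 3 or without neurofibroma 4 or 8. In those settings 6218 to 6345 of all genes were lower. Hoxb2, Hoxb4, Hoxb8, Hoxd4, Hoxd9 and Hoxd1 kept their call without any 1 GEM-PNST library and without neurofibroma 4, 8 or 9, whereas Hoxb6 and Hoxb7 lost theirs without GEM-PNST library 2 or 4, Hoxd8 without library 4, Hoxc9 without library 4 or neurofibroma 8, Hoxa6 without library 1, 2 or 3 or any of those neurofibromas, and Hoxa9 without any 1 GEM-PNST library or neurofibroma 4 or 8. Against the first neurofibroma run alone 6 members were higher and 1 lower, and against the second 5 and 2. Of all genes, 5258 were higher and 5579 lower against the first run, and 5145 and 5605 against the second.

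**Figure D4:**
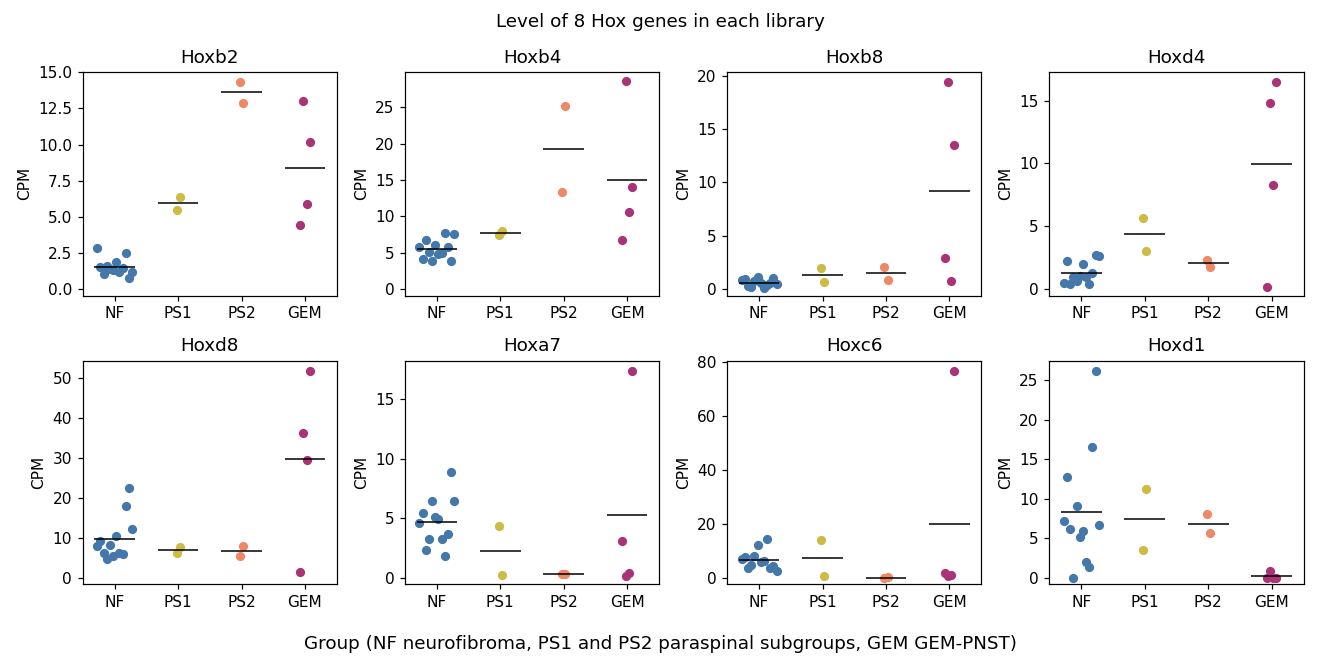
CPM (y axis, linear, a scale for each gene) of 8 Hox genes in every library, by group on the x axis (NF neurofibroma, PS1 and PS2 paraspinal subgroups 1 and 2, GEM GEM-PNST); points are libraries and lines are group means. All paraspinal and GEM-PNST points of Hoxb2 (4.41 to 14.3) lie above the highest neurofibroma (2.84), while Hoxc6 in GEM-PNST has 1 point at 76.6 and 3 at or below 1.67.

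Hoxd1 is an anterior paralog that in mice is known from pain-sensing neurons of the sensory ganglia. Its level in neurofibromas was 0 in library 4, 6.46 at the median and 26.1 in library 11. It was at 3.57 and 11.2 CPM in subgroup 1 and 8.03 and 5.68 in subgroup 2, and in GEM-PNST it had 0 counts in libraries 1, 3 and 4 and a level of 0.876 CPM in library 2. GEM-PNST differed from neurofibroma by -5.12 ± 1.41 on the log2 scale (edgeR adjusted p = 0.00371), a call that was lost in limma-voom, and paraspinal tumors by -0.21 ± 0.78 (0.830).

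Hoxd1 moved with the sensory neuron markers. Over the 12 neurofibromas its log2 CPM followed the mean log2 CPM of the 10 markers, with Pearson's r = 0.948 (two-sided permutation p = 1e-05, the smallest that 100000 permutations can give, adjusted p = 0.00078) and Spearman's rho = 0.888 (permutation p = 0.00037, adjusted p = 0.0289). Of 78 relations computed (26 members with the sensory neuron, Schwann lineage and fibroblast lists), this was the one that passed by both measures after adjustment; the relation was tested after its values were seen. Without neurofibromas 4 and 11, the farthest from the median, r was 0.793. It was 0.998 within the first run, which holds neurofibroma 4, and 0.890 within the second. Without neurofibromas 8 and 9, whose codes share a number, it was 0.989. With the Schwann lineage list, r of Hoxd1 was 0.991 within the first run, -0.255 within the second and 0.6385 over all 12 neurofibromas. The first run alone thus did not part the neuron list from the Schwann list.

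Hoxb5 came next with r = 0.826 (permutation p = 0.00012, adjusted 0.00468) and rho = 0.811 (permutation p = 0.00223, adjusted 0.0727). By Pearson's r alone, Hoxd3 passed with the neuron markers too (r = 0.777, adjusted permutation p = 0.026). Hoxd3 and Hoxd8 ran against the fibroblast markers (r = -0.790 and -0.788, adjusted permutation p = 0.0271 for each). Hoxd1 had r = -0.67 with the fibroblast markers, which did not pass (adjusted permutation p = 0.291). The neuron channel gene Scn10a, 1 of the 10 sensory neuron markers, was at 0.736 CPM in neurofibroma 4, where Hoxd1 had 0 counts. Scn10a was at 94.9 to 1212 in the other neurofibromas. It had 0 counts in all 4 GEM-PNST, library 2 with its 0.876 CPM of Hoxd1 among them, while in GEM-PNST libraries 1 and 3, where Hoxd1 had 0 counts, Avil stood at 474.7 and Tubb3 at 143.7 CPM. The part of these markers in the Hoxd1 difference was not tested. The Hoxd1 promoter window (RefSeq, GRCm38.p6, chr2:74762730-74762979, plus strand) is shown because Hoxd1 was the lower HoxD gene, with capitals as above.
Hoxd1: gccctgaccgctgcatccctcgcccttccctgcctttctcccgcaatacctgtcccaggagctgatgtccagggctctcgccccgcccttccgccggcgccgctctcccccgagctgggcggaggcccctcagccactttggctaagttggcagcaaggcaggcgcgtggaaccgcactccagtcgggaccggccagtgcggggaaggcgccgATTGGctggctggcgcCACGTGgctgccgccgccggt
It held 24 CG pairs, against 3 for Hoxd4, 6 for Hoxd8 and 13 for Hoxd9, a median of 12.5 in the 24 Hox windows and a median of 6 in all windows; those of Hoxa13, Hoxd13 and Hoxa5 held more. It also held CACGTG, as did 4 of the 24 Hox windows and 6.02% of all windows.

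**Figure D5:**
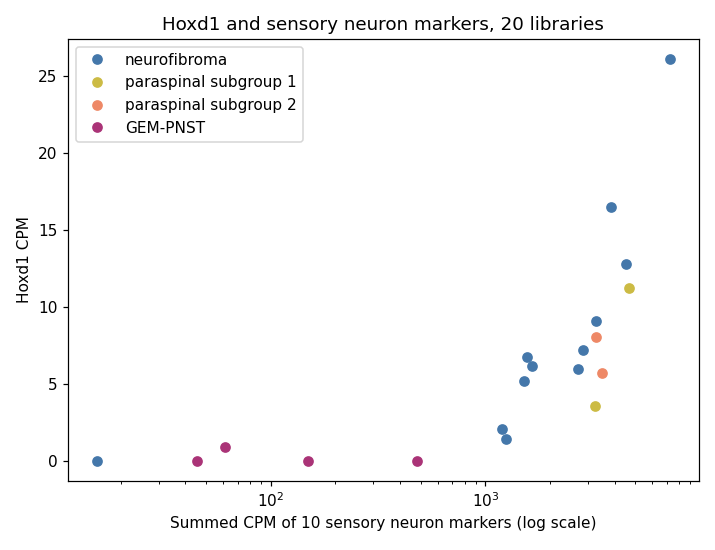
Hoxd1 CPM (y axis) against the summed CPM of 10 sensory neuron markers (x axis, log scale) in the 20 libraries, colored by group. Neurofibroma 4 (0 and 15.5) and the 4 GEM-PNST (at most 0.876 and at most 478.9) sit at the lower left, and neurofibroma 11 (26.1 and 7243) at the upper right.

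GEM-PNST and paraspinal tumors, which share genotype and run, did not differ in any member in edgeR at an adjusted p under 0.05, where 2.78% of all genes were higher and 7.88% lower. At an unadjusted p under 0.05 there were 3 of 26 members, against 33.55% of all genes. DESeq2 called 3 members, where 1958 of the 16589 genes were higher and 2753 lower, and limma-voom called 1, where 806 were higher and 2056 lower, so none of these counts stood above the background. The largest differences upward were Hoxc8 at 3.31 ± 2.40 (log2, SE, edgeR adjusted p = 0.357) and Hoxb8 at 2.69 ± 0.96 (0.0949). The largest downward were Hoxd1 at -4.94 ± 1.49 (0.0645), where all GEM-PNST lay below all paraspinal libraries, and Hoxa4 at -1.57 ± 1.01 (0.300), where they did so too. Non-overlap in that direction held for 2 members, and for 16.5% of all genes tested; in the other it held for none, and for 10.7% of all genes. Without GEM-PNST library 1, 2 members were higher, as were 349 of all 16589 genes. Without library 2, where GEM-PNST had no Hoxd1 count left, Hoxd1 was lower (edgeR adjusted p = 0.0103). In that setting 452 of all genes were higher and 1110 lower. Without library 3, which held the lowest Hoxb8 of the GEM-PNST group (0.790 CPM), Hoxb8 was higher (3.08, edgeR adjusted p = 0.0361). There 752 of all genes were higher and 1697 lower.

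Subgroup 2 and subgroup 1 did not differ in any member either (0 at an adjusted p under 0.05 in edgeR, 0 at an unadjusted p under 0.05, 0 in DESeq2 and 3 in limma-voom). Of all genes 11.9% were at an unadjusted p under 0.05, DESeq2 called 506 higher and 706 lower, and limma-voom 2523 and 2816, so the 3 members lay below that background. No gene of the 16589 passed in edgeR here, so a count of 0 says nothing about the Hox genes in particular. The largest values were Hoxa2 at 1.39 ± 1.33 and Hoxb4 at 1.32 ± 0.71 upward, and Hoxc8 at -8.35 ± 4.82 and Hoxc9 at -7.17 ± 3.48 downward, where both subgroup 2 libraries had 0 counts and the fitted value is no bound (edgeR adjusted p = 0.754, 0.515, 0.557 and 0.477). Without subgroup 1 library 1 the Hoxc8 value was 0, since the remaining 3 libraries had no count.

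Posterior HoxA genes were present in some of the 12 neurofibromas and nearly absent from others. Hoxa10 was at 4.42 CPM in library 4, 3.42 in library 12 and 2.02 in library 7, and at 0 to 0.398 in the other 9. Hoxa9 was at 4.02 in library 12, 2.95 in library 4, 2.31 in library 11 and 2.09 in library 2, and had 0 counts in libraries 1 and 6. Hoxa11 had counts only in library 4, at 0.294 CPM. Hoxc8 was highest in libraries 6, 5, 11 and 2, at 14.6, 11.1, 9.52 and 7.84 CPM, and libraries 11 and 2 were thus among the highest for both Hoxa9 and Hoxc8. By comparison Hoxb3 stayed within 6.51 to 13.5 CPM in all 12.

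Other genes of Hox control were read from lists chosen with the members. Their counts are to be read against the shares of all genes tested, which were 30.7% higher and 28.9% lower in paraspinal tumors and 35.4% and 37.9% in GEM-PNST, each against neurofibromas. The TALE cofactors, which bind DNA beside HOX proteins, had 3 of 9 higher and 2 lower in paraspinal tumors against neurofibromas (median log2 fold change -0.06, against 0.00 over all genes), with Pbx4 at 1.65 ± 0.41 and Pbx2 at 1.38 ± 0.14 among the higher. In GEM-PNST against neurofibromas 2 were higher and 2 lower (median -0.04, against -0.12 over all genes). No cofactor passed between GEM-PNST and paraspinal tumors.

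Polycomb genes, whose products keep Hox clusters silent, had 9 of 22 higher and 6 lower in paraspinal tumors and 11 higher and 6 lower in GEM-PNST, each against neurofibromas (medians 0.17 and 0.61, against 0.00 and -0.12 over all genes). Between GEM-PNST and paraspinal tumors Ezh2, the H3K27 methyltransferase, alone passed (1.43 ± 0.37, edgeR adjusted p = 0.0449). Trithorax and H3K27 demethylase genes, which keep the clusters active, had 6 of 13 higher and 6 lower in both comparisons with neurofibromas (medians 0.39 and 0.15). Ash1l, Kmt2a and Kdm6a changed most, with log2 fold changes of -3.61, -2.50 and -2.16 in GEM-PNST, while Dpy30, Men1 and the other H3K27 demethylase gene, Kdm6b, rose by 2.07, 1.29 and 1.34.

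Inputs to the clusters (Cdx, retinoic acid, GDF11 and FGF genes) had 13 of 18 tested, with 4 higher and 1 lower in paraspinal tumors and 4 higher and 3 lower in GEM-PNST against neurofibromas (medians 0.48 and -0.21). Crabp1, a retinoic acid binding protein, was at 1.32 ± 0.802 CPM in neurofibromas (n = 12), 3.99 ± 2.38 in paraspinal tumors (n = 4) and 4.48 to 2241 in GEM-PNST, and was higher in GEM-PNST than in paraspinal tumors (log2 fold change 8.15 ± 1.88, edgeR adjusted p = 0.0328). Of other positional factors 9 of 21 were tested, with none higher and 4 and 6 lower in paraspinal tumors and GEM-PNST (medians -0.87 and -3.56). Otx1, a head gene, was at 8.55 to 13.4 CPM in all 12 neurofibromas and at 0 to 0.148 in the other 8 libraries.

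Of noncoding RNAs of the clusters, 3 of 14 in the table were tested. Halr1 (listed as Gm15055), upstream of HoxA, was at 0.687 ± 0.497 CPM in neurofibromas and 3.36 ± 1.53 in paraspinal tumors (log2 fold change 2.26 ± 0.58, edgeR adjusted p = 0.00269), and did not pass in GEM-PNST against neurofibromas. Of 16 genes that flank the clusters, 3 were higher and 5 lower in paraspinal tumors, and 6 higher and 5 lower in GEM-PNST, against neurofibromas (medians -0.17 and 0.24).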

How the data were processed

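Gene counts of 20 mouse tumor libraries were used as the authors deposited them: whole-number counts per gene, not normalized. Per the submitters' processing notes, TopHat, HISAT2, featureCounts and mm10 were used; what each did, the gene annotation and strandedness are not given in the sources used here. Kits were RNeasy Plus Micro and Nextera XT, per the labels' protocols. A run for each library came from the deposited metadata.

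TMM factors over all 20 libraries gave CPM. Exon lengths came from GENCODE vM21. Comparisons used edgeR 4.0.16 quasi-likelihood tests in R 4.3.3 on the libraries compared (for the subgroups, GEM-PNST served as a further group for spread), with Benjamini-Hochberg adjustment over 16589 genes and a threshold of 0.05. The SE given with an edgeR log2 fold change is the size of that change divided by the square root of its F statistic. The code was tested on simulated data. DESeq2 1.42.0, limma-voom (limma 3.58.1), RLE factors, other filters, a replicate block and left-out libraries were alternatives.

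Genes passed filterByExpr with the 3 stages as groups. A first run had used the 4 groups (17258 genes, 27 Hox members); the stages were chosen after that run's totals were seen and before any Hox fold change was looked at. Members, lists and markers were chosen with earlier results of these data known. Named members were, per comparison, up to 8 called in each direction with the largest change and a mean of 1 CPM or more, or the 2 largest where fewer than 2 passed, and the highest per-length member of each group and cluster; members called below that mean and others were named after their values were seen, as were the correlations computed. Libraries of a group differed by more than sampling noise (lowest chi-square per degree of freedom 22.63 over 78 pairs). No table of proteins was used here. Results for some items are not reported here.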

Additional observations from a re-analysis of the deposited data

Results flagged for a closer look

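In 36 sets of 4 libraries (18 named members in the paraspinal and in the GEM-PNST group), the gap between the outermost log2 CPM and its nearest neighbor, as a share of the range, was compared with Dixon's critical value. Chance alone would flag about 1 in 20 independent sets, or 1.8 here, and 7 were flagged. The members were named for their changes and neighbors in a cluster share libraries, so 7 and 1.8 cannot be compared as a test. Where 3 libraries have 0 counts, the gap is 1.0 of the range at any level of the other library. In paraspinal tumors subgroup 1 library 1 stood high for Hoxc8 (gap 1.0 of the range, 4.07 CPM), Hoxa7 (0.888, 4.31 CPM) and Hoxc9 (0.887, 1.74 CPM). In GEM-PNST library 4 stood high for Hoxa6 (1.0, 0.720 CPM) and library 2 for Hoxd1 (1.0, 0.876 CPM), each beside 3 libraries with 0 counts. GEM-PNST library 1 stood low for Hoxd4 (0.837, 0.134 CPM) and Hoxd8 (0.841, 1.41 CPM).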

How the results depend on the processing

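Hoxb2 kept its direction and its call in 18 of 18 alternatives for GEM-PNST and 19 of 20 for paraspinal tumors against neurofibromas. The paraspinal count (10 main) was 3 with subgroup 1 alone, where 3740 of all genes were higher and 3706 lower. It was 6 with the first and 6 with the second neurofibroma run alone, and 6 to 12 with 1 library left out. It was 9 in limma-voom, where Hoxa4, Hoxa5, Hoxa9, Hoxb8 and Hoxb9 lost their call and 4681 of all genes were higher and 4306 lower. With all 20 libraries in a single fit it was 7, and Hoxa4, Hoxa5, Hoxb6, Hoxb8 and Hoxd4 lost theirs. That fit called 4366 of all genes higher and 4577 lower. The GEM-PNST count (12 main) was 7 in limma-voom and 7 with either run alone, and 9 to 17 with 1 library left out. Here limma-voom called 4957 of all genes higher and 5255 lower. With the 4 groups in the expression filter, an alternative added after seeing the data, the counts were 11 and 11.

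GEM-PNST against paraspinal tumors (0 main) gave 3 in DESeq2, 1 in limma-voom, and 0 to 2 with 1 library left out. When all 20 libraries shared a fit it gave 7, where 3749 of the 16589 genes were higher and 3309 lower. These 7 did not stand above that background. Hoxc8 reversed to -0.41 without GEM-PNST library 4. Subgroup 2 against subgroup 1 (0 main) gave 3 in limma-voom and 1 with all 20 libraries. The latter fit called 522 of all genes higher and 730 lower. Hoxc8 in this comparison ranged from -9.32 to 0.0 with 1 library left out. Libraries reaching paralog 9 or higher went from 6 to 0 (HoxA), 5 to 0 (HoxB), 4 to 1 (HoxC) and 13 to 2 (HoxD) at 5 CPM, and from 5 to 9 for HoxB at 0.5 CPM. RLE factors moved the median of all genes by -0.105 and -0.155 (log2) in the comparisons with neurofibroma. Where no value is given the cause was not tested.

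Same-numbered libraries correlated from -0.258 to 0.167 in their deviations from group means. Of the 4 GEM-PNST libraries, 2 correlated best with their own number. In a subgroup of 2 libraries the deviations mirror each other. This check therefore cannot tell whether same-numbered libraries share more than a number. The replicate block left few residual degrees of freedom. With it the counts were 0 and 2 against neurofibroma, and Hoxb7 reversed to -0.047 in GEM-PNST. Of all genes, 1414 were then higher and 1542 lower in paraspinal tumors, and 3452 and 3968 in GEM-PNST.

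Depth limits members at 0 counts to 0.112 to 0.302 CPM per library.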
